A study of Mus musculus with 8 samples.

Results

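The mitochondrial genome of the mouse carries a small set of protein genes, and 10 of them are described here: mt-Nd1, mt-Nd2, mt-Nd4, mt-Nd5, mt-Cytb, mt-Co1, mt-Co2, mt-Co3, mt-Atp6 and mt-Atp8. They were taken by gene symbol from the gene list of every count matrix, where all 10 were found among 32285 genes, and they are called the members in what follows. A further 3 protein genes with the same prefix, mt-Nd3, mt-Nd4l and mt-Nd6, were listed but are not members. The hearts came from wild-type male C57BL/6J mice operated on at 8 weeks of age. In transverse aortic constriction (TAC) a silk ligature narrowed the aortic arch and loaded the left ventricle with pressure, and sham mice had the same operation with no ligature tied. Hearts were taken 2 weeks (TAC-2w), 4 weeks (TAC-4w) or 6 weeks (TAC-6w) after TAC, and no week is given for sham. Each of these 4 conditions had 1 tissue section measured by spatial transcriptomics (ST) on a 10x Visium slide, where a Spot covers a few cells, and 1 single-cell RNA sequencing (scRNA-seq) library. The labels describe an isolation of nuclei for the scRNA-seq libraries and the methods an enzymatic cell suspension; which of them was used cannot be told from these texts, and the word cell is used below. With 1 section and 1 library per condition there was no replicate, so no test between conditions was possible. Every interval below is an exact 95% interval for counting error of unique molecular identifiers (UMI, 1 count per captured molecule) and holds nothing of the spread between animals. Ratios have sham as the denominator, and the 3 TAC sections share 1 sham section.

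All members encode subunits of the machinery that makes ATP by oxidative phosphorylation. Complex I (the mt-Nd genes) takes electrons from NADH, complex III (mt-Cytb) passes them to cytochrome c, complex IV (the mt-Co genes) hands them to oxygen, and complex V (the mt-Atp genes) is the ATP synthase. Their transcripts are cut from long precursors made off the mitochondrial DNA, so they share promoters, and their levels differ mainly through processing and stability. Cardiac muscle is densely packed with mitochondria, and in heart tissue these RNAs make up a very large part of all polyadenylated RNA. A high mitochondrial share in a cell barcode is also a usual sign of a damaged cell, which is why single-cell work sets a limit on it.

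On the mitochondrial chromosome (MT) of the mouse assembly GRCm38, the RefSeq annotation placed mt-Nd1 at 2751 to 3707, mt-Nd2 at 3914 to 4951, mt-Co1 at 5328 to 6872 and mt-Co2 at 7013 to 7696. They are followed by mt-Atp8 at 7766 to 7969, mt-Atp6 at 7927 to 8607, mt-Co3 at 8607 to 9390, mt-Nd4 at 10167 to 11544, mt-Nd5 at 11742 to 13565 and mt-Cytb at 14145 to 15288. All 10 are annotated as protein coding. The coding lengths run from 204 bases for mt-Atp8 to 1824 bases for mt-Nd5. mt-Atp8 and mt-Atp6 overlap by 43 bases and are carried on a shared RNA, mt-Atp6 and mt-Co3 overlap by 1 base, and the start of mt-Nd4 overlaps the end of mt-Nd4l by 7 bases. Reads in these overlaps could be counted for either gene or for none, so the split between mt-Atp8 and mt-Atp6 is uncertain.

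The sham section held 1676 Spots, and those of TAC-2w, TAC-4w and then TAC-6w held 2063, 1228 and 2193, with 25996378 to 48754396 UMIs each and a median of 15489 to 27593 UMIs per Spot. Sham and TAC-2w came from batch 1 of the ST work, TAC-4w from batch 2 and TAC-6w from batch 3, so batch and time cannot be told apart for TAC-4w and TAC-6w. Isolated Spots with no neighbour on the array numbered 2 in TAC-2w and 1 in TAC-4w. All 6 cardiomyocyte markers were detected in each section. Their summed level was 38789 UMIs per 1000000 UMIs (CPM) in sham, 41239 in TAC-2w, 30894 in TAC-4w and 38199 in TAC-6w. The 6 endothelial cell markers summed to 1204, 1163, 1591 and 2118 CPM in the same order, the 6 fibroblast markers to 627, 626, 874 and 930, and the 6 macrophage markers to 140, 127, 262 and 198. Markers of these other cell types were thus higher in TAC-4w and TAC-6w than in sham, and their part in the member values was not tested.

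The members made up close to 1 UMI in every pair in the sham section and a smaller part in each TAC section. Their share of all UMIs was 49.4% in sham, 42.03% in TAC-2w, 40.9% in TAC-4w and 42.6% in TAC-6w. The 3 TAC sections were within a narrow range of each other and all below sham. The ratios were 0.850 (0.850 to 0.851) in TAC-2w, 0.827 (0.827 to 0.828) in TAC-4w and 0.861 (0.861 to 0.862) in TAC-6w. TAC-2w, the section in the same batch as sham, lay below sham like the others. In tissue, fewer cells of a mitochondria-rich type, less mitochondrial RNA per cell and more RNA of other genes cannot be told apart. The summed cardiomyocyte markers per 1000000 UMIs were below sham in TAC-4w, close to it in TAC-6w and above it in TAC-2w. Per 1000000 UMIs of genes outside the mitochondrial genome they were at 79997 in sham, 72888 in TAC-2w, 53450 in TAC-4w and 68409 in TAC-6w, below sham in all 3 TAC sections, so their direction at TAC-2w turned with the total; their part in the result was not tested.

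The members fill so much of each library that a change in their share also changes the CPM of other genes. Shares alone cannot tell a fall of the members from a rise of other RNA. Counted against the UMIs of genes outside the mitochondrial genome, the members were at 1.02 UMIs per such UMI in sham, 0.743 in TAC-2w, 0.708 in TAC-4w and 0.762 in TAC-6w. The ratios to sham on this scale were 0.729, 0.694 and 0.748. Leaving the mitochondrial genes out of the total shifted every other gene's log2 ratio by -0.22, -0.25 and -0.20 at 2, 4 and 6 weeks. Counts and medians of gene lists in the sections are therefore given on both scales.

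The lower member share was spread over the tissue and did not sit in a few Spots. The median Spot had a member share of 50.6% in sham, with a middle range (first to the third quartile) of 48.2% to 52.7%. In TAC-2w the median was 42.02% (40.3% to 43.6%), in TAC-4w 41.7% (39.6% to 43.6%) and in TAC-6w 43.2% (41.1% to 45.0%). The upper quartile of each TAC section was thus below the lower quartile of sham, although single Spots overlapped. Single Spots ran from 15.6% to 59.7% in sham, from 31.8% to 55.9% in TAC-2w, from 15.9% to 49.9% in TAC-4w and from 17.9% to 52.2% in TAC-6w.

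**Figure D1:**
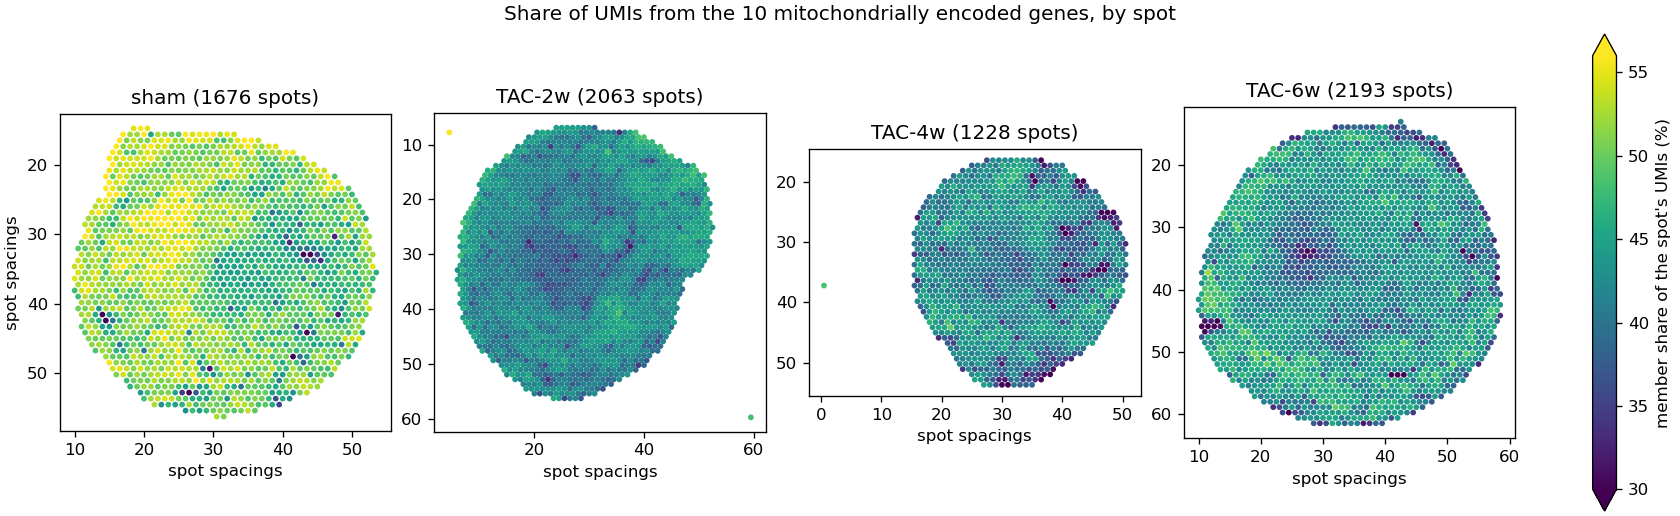
Share of each Spot's UMIs that came from the 10 members (color, %), for the 4 sections, with Spots at their array positions in units of the Spot spacing; colors are capped at 30% and 56%. Sham, with a median Spot of 50.6%, is lighter than TAC-2w (42.02%), TAC-4w (41.7%) and TAC-6w (43.2%) over most of its area, and each section has small patches of dark Spots.

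Spots with a like share lay beside each other. Moran's I, which is 0 when neighbours are no more alike than distant Spots and nears 1 when they are, was 0.538 for the member share in sham, 0.564 in TAC-2w, 0.512 in TAC-4w and 0.467 in TAC-6w. Spot depth was arranged in space as well, with Moran's I of log10 UMIs between 0.583 and 0.863. Spots on the rim of the tissue, which lacked at least 1 of 6 neighbours, differed from interior Spots in opposite ways. In sham the rim was at 50.6% and the interior at 49.2%, and in TAC-2w at 43.1% and 41.9%. In TAC-4w the rim was at 38.1% and the interior at 41.2%, and in TAC-6w at 39.9% and 42.9%. The rim was thus above the interior in the pair of sections from batch 1 and below it in the sections from batches 2 and 3, with no replicate section to set this against. Interior Spots alone kept the order of sham above every TAC section.

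Complex IV transcripts dominated the group. In sham, mt-Co1, mt-Co2 and mt-Co3 together were 58.6% of member UMIs, complex I members 21.9%, complex V members 11.2% and mt-Cytb of complex III 8.30%. Complex IV was at 289827 CPM in sham, 243700 in TAC-2w, 241183 in TAC-4w and 245826 in TAC-6w. Complex I was at 108137, 95164, 88647 and 94981 CPM in the same order. Both complexes were lower in all TAC sections, complex IV by ratios of 0.841, 0.832 and 0.848 and complex I by 0.880, 0.820 and 0.878. Complex III was at 0.852, 0.842 and 0.907 of sham, and complex V at 0.841, 0.807 and 0.863. The weights of the complexes within the group shifted little, and the largest change was that of complex III (mt-Cytb) at TAC-6w, whose share of member UMIs was 1.05 times that of sham.

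mt-Co1, the catalytic core of complex IV, was the most abundant member by UMIs in all 4 sections, at 127637 CPM in sham, 110584 in TAC-2w, 113381 in TAC-4w and 110563 in TAC-6w. mt-Co3, another core subunit, was at 94806, 77875, 75946 and 80433 CPM. mt-Co2, which takes the electrons from cytochrome c, was at 67384, 55241, 51856 and 54830 CPM. All 3 were highest in sham. mt-Co2 had the lowest ratios of the 3 at 0.820, 0.770 and 0.814, while mt-Co1 was at 0.866, 0.888 and 0.866 and mt-Co3 at 0.821, 0.801 and 0.848.

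Of the complex I members, which form the proton-pumping arm in the membrane, mt-Nd4 was at 38971, 34589, 32898 and 34299 CPM, in the order of sham and then 2, 4 and 6 weeks. mt-Nd1 was at 32800, 27702, 25185 and 28263 CPM, and mt-Nd2 at 32295, 29711, 27430 and 29605 CPM. These 3 were again highest in sham, and mt-Nd2 stayed nearest to it, with ratios of 0.920, 0.849 and 0.917 against 0.845, 0.768 and 0.862 for mt-Nd1. mt-Nd5 was far lower than its complex I partners, at 4071, 3163, 3135 and 2815 CPM. It was the member furthest below sham at TAC-2w and TAC-6w, with ratios of 0.777 (0.771 to 0.783), 0.770 (0.763 to 0.777) and 0.691 (0.686 to 0.697).

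mt-Cytb, the only complex III subunit of the mitochondrial genome, was at 41026 CPM in sham, 34957 in TAC-2w, 34543 in TAC-4w and 37200 in TAC-6w. mt-Atp6, part of the proton channel of the ATP synthase, was at 54431, 45605, 43831 and 47075 CPM, which gave ratios of 0.838, 0.805 and 0.865. mt-Atp8, a small accessory subunit of the same enzyme, was at 896 CPM in sham, 901 in TAC-2w, 834 in TAC-4w and 655 in TAC-6w. It was the exception at TAC-2w, where its ratio of 1.01 had an interval (0.991 to 1.02) that held 1; it was 0.931 (0.915 to 0.948) at TAC-4w and 0.731 (0.719 to 0.744) at TAC-6w.

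**Figure D2:**
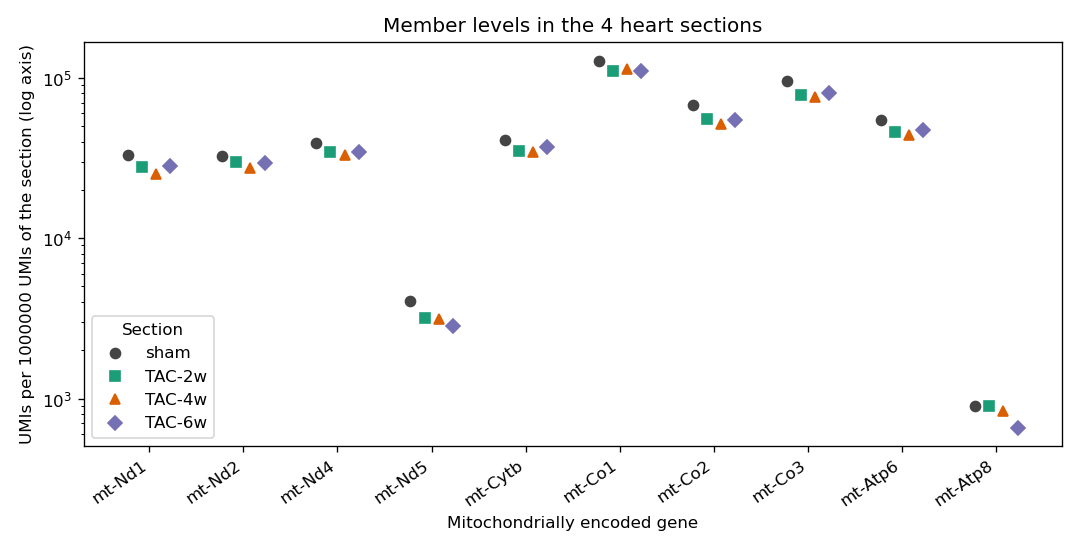
Level of each member in the 4 sections as UMIs per 1000000 UMIs of the section, on a log axis, with 1 point per section. mt-Co1 is highest (110563 to 127637) and mt-Atp8 lowest (655 to 901), and the sham point is the highest of each gene except mt-Atp8, where TAC-2w and sham nearly coincide.

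Across the members the median ratio to sham was 0.848, 0.824 and 0.863 at 2, 4 and 6 weeks. To count genes, a fixed size was used: a ratio of at least 5/4 (higher) or at most 4/5 (lower), in genes that had 50 UMIs or more in at least 1 of the pair. At TAC-2w 1 of 10 members was lower by that size, mt-Nd5, against 12.1% of the 11423 genes tested, and 0 members were higher, against 17.8%. At TAC-4w 3 members were lower, mt-Nd1, mt-Co2 and mt-Nd5, against 6.52% of 11205 genes, and 0 were higher, against 36.4%. At TAC-6w 2 members were lower, mt-Nd5 and mt-Atp8, against 2.79% of 11952 genes, and 0 were higher, against 47.2%. Counted against non-mitochondrial UMIs, 9 of 10 members were lower by that size at TAC-2w (all but mt-Atp8) and all 10 at TAC-4w and TAC-6w, against 31.3%, 18.6% and 7.17% of the genes tested, and 0 were higher, against 6.15%, 15.6% and 22.0%. The number of members past the fixed size thus depended on the total used. On all UMIs the median over all genes tested went the other way, at 1.03, 1.16 and 1.24. The mitochondrial genes being part of the same total, that median falls to 0.885 at TAC-2w and 0.974 at TAC-4w and stays above 1, at 1.07, at TAC-6w when only UMIs of other genes make up the total.

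The nonmember mitochondrial genes were lower as well, and by more than most members. mt-Nd3, a complex I subunit, was at 19533 CPM in sham, 12936 in TAC-2w, 12125 in TAC-4w and 15031 in TAC-6w, with ratios of 0.662, 0.621 and 0.770. mt-Nd4l was at 1234, 932, 803 and 804 CPM, with ratios of 0.755, 0.651 and 0.651. mt-Nd6, the only protein gene on the opposite strand, was the rarest, at 38.1, 28.4, 29.6 and 27.4 CPM. The 3 genes together were 4.04% of mitochondrial UMIs in sham and 3.20%, 3.07% and 3.59% in the TAC sections, so the members carried nearly all of the mitochondrial signal.

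To compare members with each other, CPM was divided by the coding length in kilobases. Reads of this assay start near the 3′ end of a transcript, so such values rank members but are no copy numbers. In sham, mt-Co3 was highest at 120926 CPM per kilobase, followed by mt-Co2 at 98514, mt-Co1 at 82613 and mt-Atp6 at 79929. A middle group held mt-Cytb at 35862, mt-Nd1 at 34274, mt-Nd2 at 31113 and mt-Nd4 at 28281 CPM per kilobase. mt-Atp8 at 4390 and mt-Nd5 at 2232 came last. The highest member was 54.2 times the lowest in sham and 57.3, 56.4 and 66.5 times in the TAC sections, in order of time. The order was that of sham in TAC-2w and TAC-6w, and in TAC-4w mt-Nd2 (26425 CPM per kilobase) and mt-Nd1 (26317) changed places.

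Relative to the group, mt-Nd5 and mt-Atp8, the pair of rarest members, moved most at TAC-2w and TAC-6w, while at TAC-4w mt-Nd1 and mt-Co2 moved about as far as mt-Nd5. mt-Nd5 was 0.824% of member UMIs in sham, 0.753% in TAC-2w, 0.766% in TAC-4w and 0.661% in TAC-6w, below sham in every TAC section. mt-Atp8 was 0.181%, 0.214%, 0.204% and 0.154%. Its weight was thus above sham at TAC-2w, by a ratio of 1.18 (1.17 to 1.203), and at TAC-4w, by 1.13 (1.11 to 1.15), and below it at TAC-6w, by 0.849 (0.835 to 0.864). The same was seen against mt-Atp6, the gene it overlaps: mt-Atp8 had 0.0165 UMIs per mt-Atp6 UMI in sham, 0.0198 in TAC-2w, 0.0190 in TAC-4w and 0.0139 in TAC-6w. Among the abundant members, mt-Nd2 took a larger part in all TAC sections (1.08, 1.03 and 1.06) and mt-Co2 a smaller part (0.964, 0.930 and 0.945), while mt-Co1 was at 1.02, 1.07 and 1.01.

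**Figure D3:**
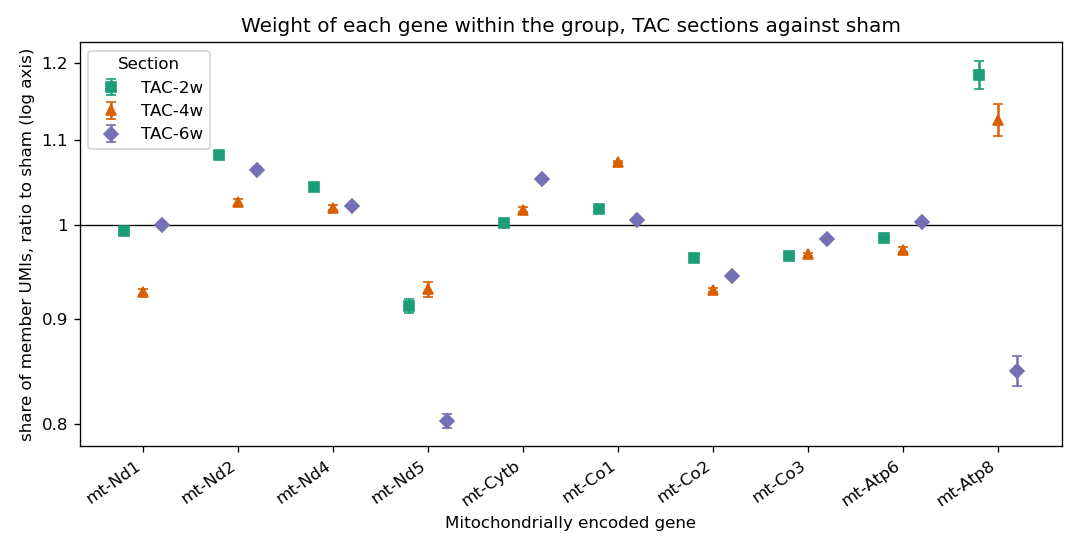
Share of member UMIs held by each member in a TAC section divided by its share in sham, on a log axis, with exact 95% counting intervals (for most points shorter than the symbol). Most points lie within 0.9 to 1.1; mt-Nd5 is below 1 throughout (0.803 at TAC-6w), and mt-Atp8 is at 1.18, 1.13 and 0.849.

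The mt-Atp8 values differed with Spot depth, which here means the UMIs counted in a Spot and was not traced to a cause. In every section its weight was larger in shallow Spots: between Spots of 500 to 5000 UMIs and Spots of over 30000 UMIs it went from 0.301% to 0.164% of member UMIs in sham, from 0.376% to 0.198% in TAC-2w, from 0.495% to 0.170% in TAC-4w and from 0.308% to 0.130% in TAC-6w. That is a ratio of 1.84, 1.90, 2.92 and 2.37, the first TAC value resting on 68 mt-Atp8 UMIs from 13 Spots. Across Spots, its weight had a Pearson's r with log10 UMIs of -0.56 in sham (1673 Spots), -0.56 in TAC-2w (2060), -0.73 in TAC-4w (1226) and -0.66 in TAC-6w (2188), where both measures share the Spot's UMIs. mt-Nd5 showed the same in sham, TAC-4w and TAC-6w, at 1.35, 1.55 and 1.52 between those bins, and at 1.01 in TAC-2w, where the shallowest bin held 135 mt-Nd5 UMIs from 13 Spots and its weight of 0.746% had an interval of 0.626% to 0.882%. The other TAC-2w bins went from 0.805% in Spots of 5000 to 10000 UMIs to 0.741% in the deepest, and r was -0.18 there against -0.55 in sham, -0.55 in TAC-4w and -0.63 in TAC-6w. mt-Co1 (0.891 to 0.979) and mt-Cytb (0.896 to 0.959) were lower in shallow Spots of all sections, and mt-Co2 was higher (1.06 to 1.13).

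Compared at a like depth, the mt-Atp8 contrasts changed in size and, at TAC-6w, in direction. In Spots of 10000 to 20000 UMIs the ratio of its weight to sham was 1.54 (1.49 to 1.60) at TAC-2w, 1.72 (1.65 to 1.79) at TAC-4w and 1.07 (1.03 to 1.11) at TAC-6w. In Spots over 30000 UMIs it was 1.21, 1.03 and 0.792. TAC-2w was above sham in all 5 bins, although its interval held 1 in the shallowest; TAC-4w was above sham in all 5 and its interval held 1 in the deepest; and TAC-6w lay on either side of 1. For TAC-6w the ratio was below 1 with an interval to match only in the bins above 20000 UMIs. mt-Nd5 at TAC-6w, by contrast, was below sham in each bin (0.763 to 0.924), while at TAC-4w it ran from 0.891 to 1.09.

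The lower share of the group as a whole did not hang on depth in this way. In sham the member share fell with depth, from 51.7% in Spots of 500 to 5000 UMIs to 47.4% in Spots of over 30000. In TAC-2w it went from 39.2% to 41.9%, in TAC-4w from 41.3% to 40.3% and in TAC-6w it was 42.2% at both ends. TAC-to-sham ratios were below 1 in all 5 bins and all 3 sections, from 0.758 in the shallowest TAC-2w Spots to 0.890 in the deepest TAC-6w Spots. The distance from sham was thus largest in shallow Spots and smallest in deep ones for TAC-2w and TAC-6w. Shallow Spots also held more hemoglobin RNA, at 28961 CPM against 5182 in the deepest bin of sham and 73858 against 8732 in TAC-2w, and more RNA of the ribosomal-like genes Gm42418, Gm26917 and AY036118, at 9576 against 1644 CPM in sham; their part in the result was not tested.

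**Figure D4:**
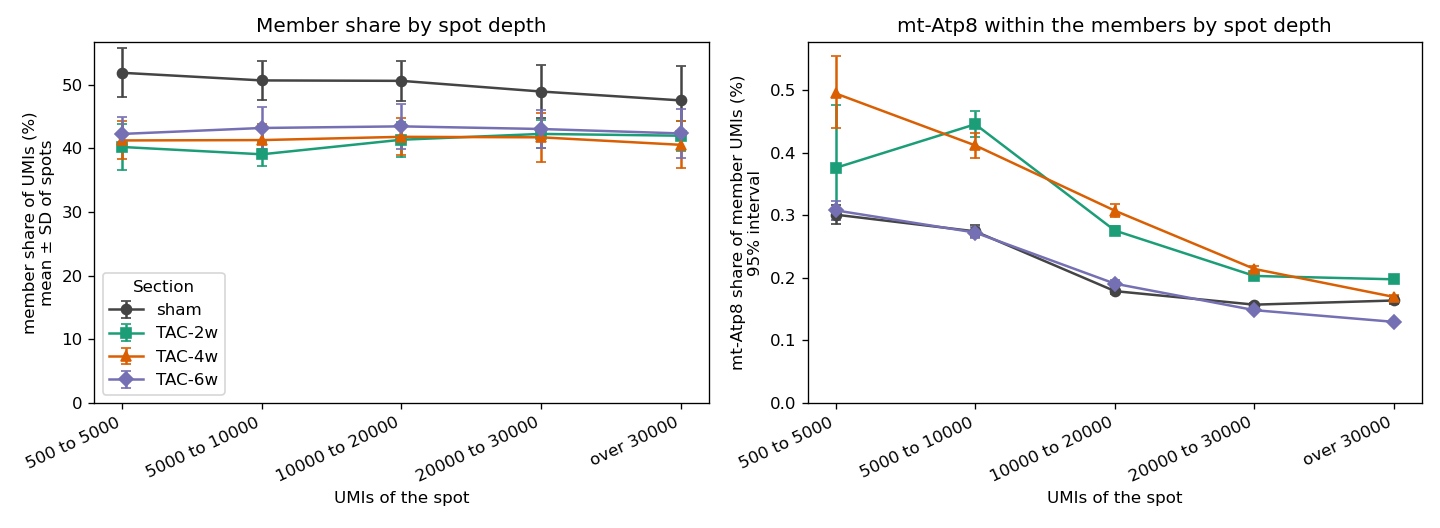
Left, member share of UMIs (%) by Spot depth, as the mean over Spots with the SD as bar; right, mt-Atp8 as a percent of member UMIs in the same bins with exact 95% counting intervals; 1 line per section. Sham lies above the TAC sections in every bin on the left (51.9% against 40.2% to 42.3% in the shallowest bin). On the right mt-Atp8 is lower in the deepest than in the shallowest bin of all sections, at 0.164% against 0.301% in sham. It does not fall at every step, and in TAC-2w it is 0.376% in the shallowest bin and 0.445% in the next.

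Nuclear genes were ranked by how closely they followed the members from Spot to Spot. For 2071 genes with at least 0.5 UMIs per Spot in every section, Pearson's r across Spots was taken between the gene and the member UMIs per other UMI, and averaged over the 4 sections. The highest means were those of Myl2 (0.382) and Myl3 (0.345), light chains of ventricular myosin, Slc25a4 (0.366), the ADP/ATP carrier of the inner mitochondrial membrane, Lpl (0.317), lipoprotein lipase, and Cox6a2 (0.284), the muscle form of a complex IV subunit. Among the lowest were those of Gsn (-0.371), an actin-severing protein, Mgp (-0.330), matrix Gla protein, Nppa (-0.297), the atrial natriuretic peptide precursor, and Bgn (-0.286), the matrix proteoglycan biglycan. All r were of the same sign in the 4 sections for each gene named here, and all are weak to moderate. Spots share section, depth and the UMI total on both axes, so the values describe likeness only.

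The nuclear-encoded subunits of the respiratory chain and ATP synthase had higher median ratios to sham than the members in all 3 TAC sections. A change of the total multiplies all ratios of a section alike, so it cannot alter this order. Of 87 such genes, 85 had enough UMIs to be counted. Their median ratio to sham was 1.40, 1.099 and 1.08 at 2, 4 and 6 weeks, with 66, 16 and 4 of 85 higher by the fixed size, beside 17.8%, 36.4% and 47.2% of all genes tested. Lower by that size were 0, 0 and 1, beside 12.1%, 6.52% and 2.79%. With only UMIs of non-mitochondrial genes in the total, the medians were 1.197, 0.922 and 0.937, with 32, 3 and 3 genes higher, beside 6.15%, 15.6% and 22.0% of all genes, and 1, 11 and 6 lower, beside 31.3%, 18.6% and 7.17%. The balance at TAC-4w and at TAC-6w thus turned from more genes higher to more genes lower. By the medians the list lay above sham at TAC-2w on both scales, and at TAC-4w and TAC-6w its direction changed with the scale. The medians over all genes tested were 1.03, 1.16 and 1.24 on all UMIs and 0.885, 0.974 and 1.07 on non-mitochondrial UMIs. On both scales the list's median was above that of all genes at TAC-2w and below it at TAC-4w and TAC-6w. Cox6a2 was at 3819 CPM in sham, 5444 in TAC-2w, 4822 in TAC-4w and 3547 in TAC-6w, with ratios of 1.43, 1.26 and 0.929 on all UMIs and 1.22, 1.06 and 0.806 on non-mitochondrial UMIs. Atp5b, the catalytic beta subunit of the ATP synthase, was at 3143, 3403, 3113 and 2862 CPM, and its ratio at TAC-2w was 1.08 on all UMIs but 0.928 on non-mitochondrial UMIs; at TAC-4w and TAC-6w it was 0.991 and 0.911 on the first scale and 0.831 and 0.791 on the second. The 4 genes higher at TAC-6w on all UMIs, named after their values were seen, were Cox6a1 (1.46) and Cox8a (1.56), widely expressed forms of complex IV subunits, Cox7a2l (1.29) and Ndufa4l2 (1.49), and the lower gene was Cox6b2 (0.489). On non-mitochondrial UMIs Cox6a1 (1.27), Cox8a (1.35) and Ndufa4l2 (1.29) were higher there. Also named after their values were seen, the 3 higher at TAC-4w on that scale were Atp5g2 (1.40), Ndufa7 (1.32) and Cox8a (1.26), and the 1 lower at TAC-2w was Cox4i2 (0.696). Across Spots, 79 of 82 ranked genes of this list had a positive mean r with the members, with a median of 0.114, beside 756 of all 2071 ranked genes and a median of -0.0141.

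A list of 31 nuclear genes for transcription, processing and upkeep of mitochondrial RNA was read in the same way. Its median ratio was 1.18, 1.1003 and 1.22 at 2, 4 and 6 weeks, which became 1.01, 0.923 and 1.06 against non-mitochondrial UMIs. By the fixed size on all UMIs, 10 of 31, 5 of 30 and 15 of 31 were higher, beside 17.8%, 36.4% and 47.2% of all genes, and 1, 2 and 0 lower, beside 12.1%, 6.52% and 2.79%. On non-mitochondrial UMIs 2, 1 and 4 were higher, beside 6.15%, 15.6% and 22.0%, and 4, 8 and 1 lower, beside 31.3%, 18.6% and 7.17%, so the balance at TAC-2w and TAC-4w turned with the total. Lars2, the mitochondrial leucyl-tRNA synthetase, was the lower gene at TAC-2w on all UMIs, with 407 CPM in sham, 288 in TAC-2w, 246 in TAC-4w and 376 in TAC-6w. Its ratios in the sections were 0.707, 0.604 and 0.923 on all UMIs and 0.606, 0.507 and 0.801 on non-mitochondrial UMIs, below 1 on both. In the scRNA-seq libraries Lars2 was above sham at TAC-4w in macrophage-like and fibroblast-like cells, but not in every cell class. In the same order it was at 782, 747, 1175 and 808 CPM in macrophage-like cells and 861, 776, 1056 and 744 in fibroblast-like cells. At TAC-4w it was below sham in neutrophil-like cells (1923 against 2133 CPM) and nearly level in platelet-like cells (1747 against 1735). On all UMIs in the TAC-4w section the lower genes were Lars2 (0.604) and the rare Top1mt (0.770, interval 0.519 to 1.14), and the higher ones Slirp (1.40), Ssbp1 (1.37), Hsd17b10 (1.34), Prorp (1.65) and Polg2 (1.302, interval 0.933 to 1.83). Lrpprc, which with Slirp stabilizes mitochondrial mRNAs, was at 134, 124, 114 and 108 CPM, with ratios of 0.928, 0.855 and 0.812 on all UMIs and 0.796, 0.718 and 0.705 on non-mitochondrial UMIs. On the latter scale, and named after their values were seen, the lower genes at TAC-2w were Lars2, Lrpprc, Nrf1 (0.709) and Fastkd5 (0.733) and the higher ones Tfb1m (1.42) and Prorp (1.298, interval 0.969 to 1.76). Prorp (1.39) was the 1 higher gene at TAC-4w, and at TAC-6w Lrpprc was the lower gene and Prorp (1.35), Supv3l1 (1.26), Mterf1a (1.38) and Tfb1m (1.27) were the higher ones, the last pair with intervals that held 1.

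The scRNA-seq libraries show the members in the other cells of the heart, under a limit. Barcodes with 200 to 6000 genes and 500 to 30000 UMIs were kept, and then those with less than 15% of UMIs from mitochondrial genes. Of barcodes passing the first filters, 901 of 9129 were at or over the limit in sham (9.87%, 9.27% to 10.5%), 860 of 7361 in TAC-2w (11.7%), 981 of 7728 in TAC-4w (12.7%) and 179 of 5756 in TAC-6w (3.11%, 2.68% to 3.59%). TAC-6w thus lost a smaller share than each other library. Sham and TAC-6w came from batch 3, TAC-2w from batch 1 and TAC-4w from batch 2. After doublet removal 7965, 6293, 6531 and 5399 cells were left, with a median of 9131, 10717, 4449 and 4743 UMIs. Pairs of libraries shared 9 to 30 barcodes.

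The barcodes removed by the limit had few UMIs and higher levels of cardiomyocyte and endothelial cell markers than those kept. Their median was 2331 UMIs in sham, 2470 in TAC-2w, 1137 in TAC-4w and 952 in TAC-6w, against 4484 to 10856 under the limit. The 6 cardiomyocyte markers summed to 6030 CPM over the limit and 472 under it in sham, to 5675 and 441 in TAC-2w, to 2256 and 242 in TAC-4w and to 5501 and 127 in TAC-6w. The 6 endothelial cell markers were at 1847 over and 671 under the limit in sham, 5123 and 1118 in TAC-2w, 9172 and 2662 in TAC-4w and 4471 and 710 in TAC-6w. In TAC-4w they stood above the cardiomyocyte markers over the limit, as did the platelet markers, at 2856 over and 1006 under it. Macrophage markers were higher over the limit in sham (2838 against 1816 CPM) and TAC-6w (1993 against 1227), and lower in TAC-4w. In TAC-2w they were lower over the limit on all UMIs (2342 against 2398 CPM). With only non-mitochondrial UMIs in the total they were higher over it there (3384 against 2522 CPM). The direction in TAC-2w thus turned with the total, while that in sham, TAC-4w and TAC-6w did not. Removed barcodes were placed by the nearest cluster center, with their mitochondrial UMIs left in the total. Of kept cells, 94.4% were nearest to the center of their own cluster, and the placement of removed barcodes was not tested. By nearest cluster, 284 of the 901 removed in sham were macrophage-like, 140 fibroblast-like, 137 cardiomyocyte-like and 114 endothelial cell-like. In TAC-4w 437 of 981 were B cell-like, 149 platelet-like, 141 endothelial cell-like and 33 cardiomyocyte-like. Of the barcodes nearest to the cardiomyocyte-like cluster, 56.1% in sham, 61.8% in TAC-2w and 58.9% in TAC-4w were over the limit. The cardiomyocyte-like cells that remained, 107 in sham and 73 in TAC-2w, are hence those under 15%. Their member share of 5.98% and 5.93% is capped by the limit and cannot be read beside the 49.4% of the sham section. In sham, 4 of these 107 cells were within 1 point of the limit, and their middle range was 3.66% to 10.0%. They held 1.08 member UMIs per cardiomyocyte marker UMI. At their marker level of 55540 CPM the limit caps this ratio too, so it cannot be read beside the 12.7 of the sham section. Any other part in this gap was not tested.

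Kept cells fell into 18 clusters, of which 17 were named from 6 markers per class and 1, led by Plac8, Apoc2 and Ly6c2, stayed unnamed. The fibroblast-like class held 3 clusters in which all 6 fibroblast markers were detected, though none was among the 10 leading genes. Doublets were taken as the 3.2% of barcodes with the highest doublet score in each library.

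Under the limit, the member share in sham ran from 8.42% in smooth muscle cell-like cells to 1.54% in red blood cell-like cells. The limit cut the classes unequally. In sham it removed 29.6% of smooth muscle cell-like, 29.7% of B cell-like, 19.7% of platelet-like and 18.8% of endothelial cell-like barcodes. Of fibroblast-like barcodes it removed 3.03%. Shares of the more heavily cut classes are thus capped as well, and the part of the limit in this ranking was not tested. Platelet-like (7.47%), B cell-like (7.01%) and macrophage-like cells (6.13%) followed the smooth muscle class. Endothelial cell-like (5.41%), T cell-like (5.29%), dendritic cell-like (4.42%) and NK cell-like cells (4.25%) lay in the middle, and fibroblast-like (3.97%) and neutrophil-like cells (2.58%) near the end. Neutrophils have few mitochondria and mature red blood cells none. Neighbouring classes overlapped widely from cell to cell: the middle range of single cells was 4.28% to 7.60% for macrophage-like and 3.29% to 4.57% for fibroblast-like cells.

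The level in most classes was lower in the TAC-6w library than in sham. Fibroblast-like cells, the largest class, had a member share of 3.97% in sham (4487 cells), 3.94% in TAC-2w (3228), 2.97% in TAC-4w (431) and 2.26% in TAC-6w (2876). Macrophage-like cells were at 6.13% (1620 cells), 6.08% (1597), 4.17% (187) and 3.49% (913). TAC-2w was level with sham in both classes, with ratios of 0.993 and 0.991, and TAC-4w and TAC-6w were lower, with 0.748 and 0.570 for fibroblast-like and 0.679 and 0.569 for macrophage-like cells. B cell-like cells went from 7.01% in sham to 6.55%, 5.82% and 3.47%, and T cell-like cells from 5.29% to 4.93%, 5.28% and 3.28%. The limit removed 29.7%, 35.8%, 15.2% and 3.28% of B cell-like barcodes in the same order. Libraries were thus cut unequally in that class, and the part of this in its ratios was not tested. Neutrophil-like cells had the lowest ratio at TAC-6w, 0.272, from 2.58% to 0.702%; in the neutrophil cluster that held most of both libraries (135 and 162 cells) the shares were 2.84% and 0.601%.

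Of classes with at least 50 cells in both libraries, all 7 compared at TAC-6w were below sham, with ratios from 0.272 to 0.927 and a median of 0.569. At TAC-4w 7 of 10 were below, 1 was above and 2 had intervals that held 1, and at TAC-2w 5 of 10 were below, 3 above and 2 held 1. Endothelial cell-like cells went another way, at 5.41% in sham, 6.17% in TAC-2w, 7.08% in TAC-4w and 5.02% in TAC-6w. That class held a pair of clusters, 1 led by the capillary genes Fabp4 and Gpihbp1 and 1 by Npr3 and Plvap, in a mix that differed between libraries, with 304 and 190 cells in sham and 468 and 10 in TAC-4w. In the first the share was 6.99% in sham, 7.65%, 7.14% and 5.40%, so most of the TAC-4w excess was not seen inside it. In the second it was 4.46% in sham, 4.49% in TAC-2w and 2.93% in TAC-6w, the last from 24 cells. At TAC-6w each cluster was thus further below sham than the class ratio of 0.927, which pools them in a changing mix. Smooth muscle cell-like cells were at 8.42% in sham and 10.5% in TAC-2w, from 100 and 92 cells.

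The lower level at TAC-6w was also present within fibroblast clusters and at like depth. TAC-6w fibroblast-like cells were mostly of the cluster led by Pla1a and Cxcl14 (2147 of 2876) and sham cells mostly of the one led by Igfbp3 and Sfrp2 (2329 of 4487). In the first cluster the member share was 4.03% in sham and 2.24% in TAC-6w, and in the second 3.90% and 2.35%. Among fibroblast-like cells of 5000 to 10000 UMIs it was 4.23% in sham (1605 cells), 4.25% in TAC-2w (582), 3.39% in TAC-4w (55) and 2.22% in TAC-6w (1832). In the few cells under 2000 UMIs the order was the reverse, 4.83% in 80 sham cells and 6.61% in 102 TAC-6w cells. Macrophage-like cells of 5000 to 10000 UMIs were at 6.07% in sham and 3.09% in TAC-6w. The TAC-6w library was also the shallower of the pair, and apart from the bins given here the part of library quality in the result was not tested.

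The members did not fall evenly in that library, and the uneven pattern recurred in most classes. All classes come from the same 1 TAC-6w and 1 sham library, so they are not independent. In endothelial cell-like cells 5 members were below sham and 5 above it. In fibroblast-like cells mt-Nd2 went from 3247 CPM in sham to 1176 in TAC-6w, a ratio of 0.362 (0.357 to 0.367). mt-Nd4 went from 3055 to 1305 (0.427) and mt-Atp6 from 8712 to 4042 (0.464). At the other end mt-Atp8 went from 186 to 165 (0.887) and mt-Co1 from 4254 to 3554 (0.835). mt-Nd5 (0.474), mt-Cytb (0.497), mt-Co2 (0.588), mt-Nd1 (0.621) and mt-Co3 (0.705) lay between. By the fixed size, 8 of 10 members were lower in TAC-6w fibroblast-like cells, against 29.9% of 12402 genes, and 0 higher, against 18.4%.

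In macrophage-like cells mt-Nd2 was again lowest, at 4766 CPM in sham and 1699 in TAC-6w (0.357), followed by mt-Nd4 (0.433), mt-Atp6 (0.457) and mt-Cytb (0.487). mt-Atp8 was highest at 0.929, with an interval (0.858 to 1.01) that held 1, and mt-Co1 was at 0.766. Here 9 of 10 members were lower by the fixed size, against 36.1% of 9443 genes, and 0 higher, against 13.0%. mt-Nd2 had the lowest ratio of the members in 6 of the 7 classes compared at TAC-6w, from 0.111 in neutrophil-like to 0.377 in T cell-like cells. In endothelial cell-like cells, which pool a pair of clusters in a changing mix, the lowest was mt-Atp6 (0.625). In the section of the same week, mt-Nd2 was the member nearest to sham, at 0.917.

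**Figure D5:**
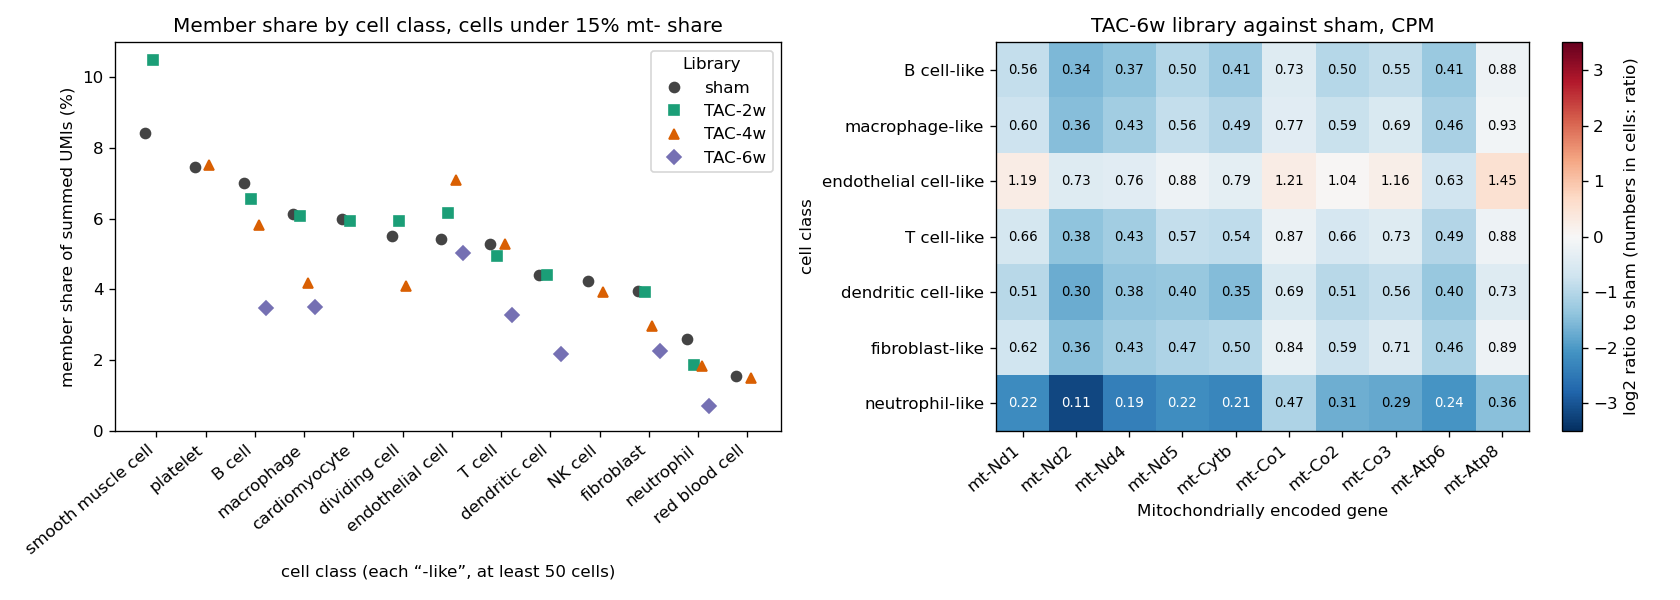
Left, member share of summed UMIs (%) per cell class in each library, for classes with at least 50 cells, ordered by sham; right, ratio of each member's CPM in TAC-6w to sham, with the ratio printed and its log2 as color. TAC-6w points lie lowest in each class they share with sham (2.26% against 3.97% in fibroblast-like cells), and the mt-Nd2 column is the darkest in all rows but the endothelial one, where mt-Atp6 (0.63) is lowest.

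At TAC-4w the spread between members took another form in most classes. mt-Atp6 had the lowest ratio to sham in fibroblast-like (0.658), macrophage-like (0.577), B cell-like (0.720), neutrophil-like (0.608), T cell-like (0.889), NK cell-like (0.749) and endothelial cell-like cells (1.01), 7 of the 10 classes compared. In the other 3 the lowest was mt-Nd2 in dividing cell-like (0.610) and red blood cell-like cells (0.808), as in most classes at TAC-6w, and mt-Atp8 in platelet-like cells (0.859). mt-Nd5 had the highest in 8 of the 10, at 0.951 in macrophage-like, 1.19 in B cell-like, 1.48 in T cell-like and 1.87 in endothelial cell-like cells, and mt-Co1 (0.946) in fibroblast-like cells. The endothelial cell-like ratios pool a pair of clusters whose mix differed between sham and TAC-4w, and its part in them was not tested. TAC-4w was a library of its own batch with few fibroblast-like and many B cell-like cells, and batch and time cannot be told apart there. At TAC-2w the members of fibroblast-like cells stayed within 0.927 (mt-Atp8) and 1.08 (mt-Co1) of sham.

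Nuclear genes of the respiratory chain did not share the lower level in fibroblast-like cells at TAC-6w. The median ratio of 85 counted genes was 1.29, with 45 higher and 5 lower by the fixed size, beside 18.4% and 29.9% of all genes and an overall median of 0.947. The 5 lower genes, named after their values were seen, were Sdha, Ndufs1, Uqcrc2, Atp5f1 and Cox7a1, at 0.750 to 0.790. In macrophage-like cells the median of 83 genes was 1.00, with 13 higher and 13 lower, beside 13.0% and 36.1% of all genes and an overall median of 0.890. The list for mitochondrial RNA upkeep was at a median of 0.976 in fibroblast-like cells, with 2 higher (Tbrg4, 1.69, and Slirp, 1.254) and 9 lower of 31, beside 18.4% and 29.9% of all genes. In macrophage-like cells it was at 0.983, with 6 higher and 6 lower of 26, beside 13.0% and 36.1%.

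The weights of mt-Co1 and mt-Atp6 differed more between tissue sections and dissociated cells than between conditions. In sham, mt-Co1 was 25.8% of member UMIs in the section and 11.4% over all kept cells, while mt-Atp6 was 11.0% and 21.3%. The rare members weighed more in cells, mt-Atp8 at 0.437% against 0.181% and mt-Nd5 at 1.50% against 0.824%. mt-Co3 was alike in both in sham, at 19.2% and 19.6%, but at TAC-6w it was 18.9% in the section and 23.8% in cells. The same directions held for mt-Co1, mt-Atp6, mt-Atp8 and mt-Nd5 in the other conditions: mt-Co1 was at 26.3% in section and 12.4% in cells at TAC-2w, 27.7% and 15.4% at TAC-4w and 26.0% and 16.1% at TAC-6w. Among the 13 named classes of sham, mt-Co1 ran from 9.12% in smooth muscle cell-like to 14.6% in platelet-like cells, so each class lay below the section. Cardiomyocyte-like cells under the limit were among these classes, with mt-Co1 at 10.2% and mt-Atp6 at 16.9% of member UMIs. Sections are mostly cardiomyocyte tissue and kept cells mostly other types, and the assays also differ in capture. The parts of cell type and assay in these weights were not tested.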

How the data were processed

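The deposited files hold raw UMI counts per gene and barcode, made by the authors with Space Ranger for ST and Cell Ranger for scRNA-seq on the mouse build mm10. The submitters' processing notes name Space Ranger 1.3.1 and Cell Ranger 7.0.0, and the matrix headers Space Ranger 1.2.0 and Cell Ranger 6.0.0. No normalization had been applied. The 10 members and the gene lists were chosen with earlier results of these data known. Counts were summed per section, depth bin or cell class and given as CPM or shares with exact Poisson, Clopper-Pearson or conditional binomial 95% intervals; reads of 1 molecule were merged by UMI, and intervals cover counting error only. A gene counted as higher or lower at a ratio of at least 5/4 or at most 4/5, with at least 50 UMIs in either sum. All Spots in the files were used. All members and the 2 or 3 most abundant genes of each list were named, with the 5 genes most and least like the members across Spots. Cells were filtered by the study's limits, doublets scored with Scrublet in scanpy 1.11.5 (expected rate 7%), and the rest scaled to 10000 UMIs, reduced to 30 components of 3000 variable genes and clustered in Seurat 5.3.0 at resolution 0.25; no mitochondrial gene was among the variable genes. A class name needed at least 3 detected markers of its list and no more markers of another class among its 10 leading genes. The interval method was tested on simulated data. Alternatives covered Spot and cell depth, the total used, the limit and doublets, while the clustering alternative used the same variable genes. Lifting the limit and keeping doublets were tried in fibroblast-like cells only. 1 gene that the rule for named genes picks is not reported here.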

Additional observations from a re-analysis of the deposited data

Results flagged for a closer look

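The weight of mt-Atp8 within the members moved in opposite directions at different times after TAC. Its share of member UMIs was 1.18 times that of sham in the TAC-2w section and 1.13 times in the TAC-4w section, but 0.849 times in the TAC-6w section, each with a counting interval on its side of 1. The difference between times was not tested, since each time was 1 section, and the TAC-6w value was 1.07 in Spots of 10000 to 20000 UMIs.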

How the results depend on the processing

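The fall of the member share in the sections kept its direction under every alternative, but not every alternative could have turned it. The ratios per non-mitochondrial UMI and for all 13 mitochondrial genes nearly restate the same share. The 3 nonmember genes were only 3.07% to 4.04% of mitochondrial UMIs. Against 0.850, 0.827 and 0.861 at 2, 4 and 6 weeks, the ratios were 0.835, 0.821 and 0.853 as a mean over Spots, 0.852, 0.829 and 0.863 in Spots of at least 5000 UMIs, 0.822, 0.827 and 0.860 in Spots of 10000 to 20000 UMIs, 0.853, 0.821 and 0.859 with ribosomal-like and hemoglobin genes left out of the total, 0.729, 0.694 and 0.748 per non-mitochondrial UMI and 0.843, 0.819 and 0.857 for all 13 mitochondrial genes. Members lower by the fixed size numbered 1, 3 and 2 on all UMIs and 9, 10 and 10 on non-mitochondrial UMIs.

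The weight of mt-Atp8 was less stable. In Spots of 10000 to 20000 UMIs it was 1.54 at TAC-2w and 1.72 at TAC-4w, and at TAC-6w it turned from 0.849 to 1.07; the cause was not tested. As a mean over Spots it was 1.096 at TAC-2w and 0.920 at TAC-6w, and over mt-Atp6 it was 1.16 at TAC-4w.

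The ratio of the shallowest to the deepest Spots, 1.09 in sham, 0.936 in TAC-2w, 1.02 in TAC-4w and 1.00 in TAC-6w, was 1.204, 0.892, 1.05 and 1.01 per non-mitochondrial UMI, and 0.958 in TAC-2w and 0.998 in TAC-6w as a mean over Spots.

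In fibroblast-like cells the ratios of 0.993, 0.748 and 0.570 became 0.983, 0.751 and 0.561 without the 15% limit and 0.990, 0.762 and 0.605 as a mean over cells. With doublets kept they were 0.995 at TAC-2w and 0.743 at TAC-4w, with ribosomal-like and hemoglobin genes left out 0.989 at TAC-2w and 0.564 at TAC-6w, and under a limit of 10% 0.567 at TAC-6w. In cells of 5000 to 10000 UMIs, a choice made after seeing the data, they were 1.01, 0.802 and 0.524, so the TAC-2w value crossed 1; the cause was not tested. In the cluster led by Pla1a alone, also chosen later, TAC-6w was at 0.557. Clustering with the mitochondrial genes allowed gave identical classes, but this was fixed in advance. No mitochondrial gene was among the 3000 variable genes, so both runs used the same genes and the effect of the members on clustering was not tested. Barcodes over the limit stayed within counting error when all barcodes were counted.

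No paired analysis was possible because each condition had 1 section and 1 library. Leaving out a replicate was likewise not possible. Summed counts do not limit the members in the sections, where the rarest, mt-Atp8, had 23280 to 43952 UMIs. The mt-Atp8 contrasts still varied with Spot depth, and the absence of replicates limits every comparison.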
